A study of Mus musculus with 12 samples.

Results

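The tumor suppressor p53, encoded by Trp53, and 8 genes that it is known to activate directly were followed through 12 RNA-seq libraries of mouse bone marrow derived macrophages (BMDMs). The 9 genes are Trp53, Mdm2, Cdkn1a, Ccng1, Phlda3, Zmat3, Trp53inp1, Bbc3 and Aen, out of 35275 genes listed in the count files, and all 9 were found and passed the filter on low counts. They were chosen by name from genes known as p53 targets, with values of these libraries already known, above all the olaparib and DMSO values. The differences between olaparib and DMSO in these genes are therefore described below without p values, and counts of called genes among them are set beside the share over all genes with nothing read from them.

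Wildtype bone marrow cells from mice were cultured for 6 days with M-CSF, IL-4 and IL-10, together with DMSO as solvent control, with olaparib, an inhibitor of the poly(ADP-ribose) polymerases PARP1 and PARP2, or with methyl-nicotinamide (MNA), a derivative of the NAD precursor nicotinamide. Each of the 3 groups had 4 libraries, numbered 1 to 4, and the study names 4 donor mice. Whether a library holds the cells of 1 mouse or a culture of pooled marrow was not given in the sources used here. All groups received the same cytokines, namely IL-10 at 10 ng/ml and both IL-4 and M-CSF at 20 ng/ml, with fresh medium on day 3. Marrow donors in the study were female or male mice, 6 to 10 weeks old. The sex and the strain of the donors of these libraries, and the doses of olaparib and MNA, were not given in the sources used here. The comparisons ask which genes each agent changed against DMSO. Olaparib against MNA was added here.

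p53 is a transcription factor that is kept at a low level by the ubiquitin ligase Mdm2, which is itself a p53 target, so that the pair forms a negative feedback loop. After DNA damage and other stresses the p53 protein is stabilized, mostly without a change of its mRNA, and binds response elements near its target genes. The targets stop the cell cycle, repair DNA, adjust metabolism or start apoptosis. PARP inhibitors trap PARP on DNA and disturb the repair of strand breaks, and p53 is known as a brake on proliferation in many cell types. These are background statements. The libraries measured mRNA and held no reading of p53 protein, its modification or its binding.

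All 9 are protein-coding genes, placed here on GRCm38 by the GENCODE annotation. The regulator and its inhibitor are Trp53 (ENSMUSG00000059552) at chr11:69580359-69591873 (plus strand) and Mdm2 (ENSMUSG00000020184) at chr10:117688875-117710758 (minus strand). The cell cycle genes are Cdkn1a (ENSMUSG00000023067) at chr17:29090976-29100727 (plus strand) and Ccng1 (ENSMUSG00000020326) at chr11:40748552-40755311 (minus strand). Of the targets that act on signalling, RNA and the p53 response, Phlda3 (ENSMUSG00000041801) at chr1:135766119-135769136 (plus strand), Zmat3 (ENSMUSG00000027663) at chr3:32334792-32366014 (minus strand) and Trp53inp1 (ENSMUSG00000028211) at chr4:11156431-11174379 (plus strand) lie on separate chromosomes. The apoptosis genes are Bbc3 (ENSMUSG00000002083) at chr7:16308393-16318205 (plus strand) and Aen (ENSMUSG00000030609) at chr7:78895854-78911209 (plus strand).

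Library totals were 21146291 to 31446849 counts for DMSO, 24947905 to 28766984 for olaparib and 24076240 to 27501216 for MNA, and the lowest count of any of the 9 genes in any library was 423 (Bbc3). MNA replicate 2 stood apart from the other MNA libraries: on the first principal component, which held 49.8% of the variance, it lay at -36.0 among the DMSO libraries, whereas the other 3 MNA libraries lay between 59.9 and 63.4. It is shown apart in the results by library. Means and fold changes for MNA hold all 4 libraries where leaving it out is not stated. The macrophage markers Csf1r and Cd68 were at 436 to 1838 and 813 to 1309 CPM over all libraries. Mertk at 13.4 to 42.9 CPM and Fcgr1 at 0.116 to 2.30 CPM were lower, and Arg1 ranged from 10.4 to 1030 CPM. The summed level of 9 macrophage markers was 4906 to 6420 CPM in DMSO, 9318 to 11407 CPM in olaparib and 4465 to 7592 CPM in MNA. The markers did not move together: from DMSO to olaparib the mean of Lyz2 went from 1918 to 6009 CPM and that of Itgam from 439 to 1469 CPM, while Cd68 went from 1228 to 839 CPM and Mrc1 from 679 to 571 CPM. The part of these levels in the results was not tested. Markers of other cells were low, with summed levels of at most 26.5 CPM for 5 dendritic cell genes, 3.86 CPM for 5 B and T cell genes, 2.57 CPM for 5 stromal genes and 0.535 CPM for 5 eosinophil, basophil and mast cell genes. Summed levels of 7 neutrophil and 4 erythroid genes ran from 1.18 to 56.4 CPM and from 0 to 50.3 CPM in MNA. They were at most 8.86 and 3.0 CPM in DMSO and 3.54 and 0.21 CPM in olaparib. The high MNA sums were not a trait of the whole group: over its 4 libraries Hba-a1 had a median of 0 and a highest level of 48.3 CPM, and S100a9 had 1.91 and 20.8 CPM. In bulk RNA, fewer cells of a type and less RNA per cell cannot be told apart.

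The stretches before the transcription start are shown for 3 genes, Cdkn1a and Ccng1, which held a match to the p53 response element, and Phlda3, which differed most between olaparib and DMSO. The p53 response element is a pair of adjacent 10-letter sites. It was searched as 20 letters without a spacer, with the central C and G of each site intact and at most 2 mismatches, a rule that reads the same on both strands. Of 32851 RefSeq promoters (250 bases before to 50 after the start, GRCm38.p6), 107 held such a match, which is 0.326%. RefSeq promoters were found for 7 of the 9 genes. Cdkn1a and Ccng1 held a match, and Trp53, Mdm2, Phlda3, Bbc3 and Aen held none in this window. For Cdkn1a only the more upstream of 2 RefSeq starts held it, and the window of the other start (chr17:29093519-29093818) held none. Counted per gene, 106 of 27025 genes (0.392%) held a match. Below are the 250 bases before the start, 5′ to 3′, of the more upstream of 2 Cdkn1a starts (chr17:29090729-29090978, plus strand), of Ccng1 (chr11:40755287-40755536, minus strand) and of Phlda3 (chr1:135765835-135766084, plus strand), where capitals mark the match.
Cdkn1a: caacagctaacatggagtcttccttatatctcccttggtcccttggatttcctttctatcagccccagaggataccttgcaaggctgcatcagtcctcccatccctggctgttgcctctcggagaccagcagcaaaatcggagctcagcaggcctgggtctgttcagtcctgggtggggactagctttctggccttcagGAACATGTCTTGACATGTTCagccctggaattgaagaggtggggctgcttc
Ccng1: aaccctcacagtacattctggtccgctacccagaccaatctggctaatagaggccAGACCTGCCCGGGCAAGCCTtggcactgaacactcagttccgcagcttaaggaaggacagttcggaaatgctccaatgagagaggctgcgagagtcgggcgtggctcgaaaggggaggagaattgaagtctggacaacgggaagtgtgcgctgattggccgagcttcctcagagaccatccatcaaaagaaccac
Phlda3: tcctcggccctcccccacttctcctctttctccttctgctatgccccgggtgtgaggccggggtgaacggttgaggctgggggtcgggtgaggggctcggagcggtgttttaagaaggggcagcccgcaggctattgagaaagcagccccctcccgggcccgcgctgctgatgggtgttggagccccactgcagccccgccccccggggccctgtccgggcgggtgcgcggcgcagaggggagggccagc
The Cdkn1a match spans bases 51 to 32 before the more upstream start, and the Ccng1 match bases 195 to 176 before its start. Each has 1 mismatch, and at most 1 mismatch was met by 22 of all promoters (0.067%). The Phlda3 stretch holds no match. A match is a description of letters only. Of 31 other p53 target genes with a RefSeq promoter, 0 held a match in this window.

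Levels of the 9 genes were compared per length, as CPM, the share of a library's counts scaled by TMM, per kb of exon. Cdkn1a, which encodes the inhibitor p21 of cyclin-dependent kinases, was the most abundant of the 9 in each group, at 112 ± 5.44 CPM per kb in DMSO (mean ± SD, n = 4), 157 ± 3.86 in olaparib and 78.9 ± 21.5 in MNA (68.2 ± 2.77 without MNA replicate 2, n = 3). In DMSO, Ccng1 (46.4 ± 1.64 CPM per kb) and Mdm2 (40.4 ± 1.61) followed. Trp53 (19.3 ± 0.906), Bbc3 (19.2 ± 2.76) and Phlda3 (17.0 ± 2.97) came next and did not differ beyond their spread. Below them lay Aen (8.77 ± 0.667) and Trp53inp1 (6.70 ± 1.01), whose libraries overlapped, and Zmat3 was lowest at 2.74 ± 0.245 CPM per kb. In olaparib the order changed mainly through Phlda3, which reached 52.9 ± 3.68 CPM per kb and overlapped with Mdm2 at 50.7 ± 0.983.

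**Figure D1:**
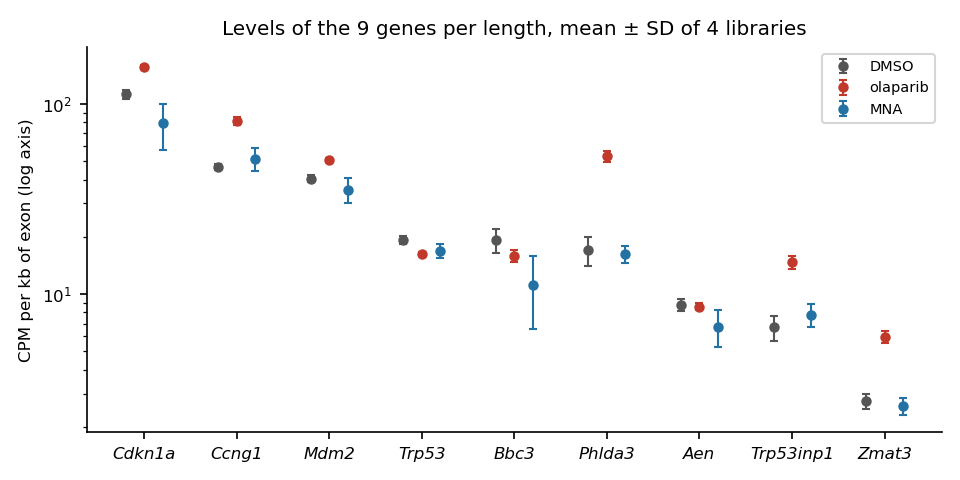
Levels of the 9 genes in each group as TMM-normalized CPM per kb of exon, on a log axis, in the order of the DMSO levels; points are means and bars SD of 4 libraries, MNA replicate 2 included. Cdkn1a is highest in all 3 groups, from 78.9 in MNA to 157 in olaparib, and Zmat3 is lowest, from 2.58 in MNA to 5.97 in olaparib.

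With olaparib, 6 of the 8 target genes were higher than in DMSO, in every library, while Trp53 itself was lower. Phlda3 was about 3 times the DMSO level, Zmat3 and Trp53inp1 about 2 times, and Ccng1, Cdkn1a and Mdm2 were 75.0%, 40.1% and 25.5% above it. The apoptosis genes Bbc3 and Aen were not higher. These values chose the genes and are given as a description. Of the 9 genes, 6 were called higher and 1 lower, where 14.3% of the 12849 genes tested were called higher and 12.8% lower at an adjusted p under 0.05 (edgeR). In 6 genes every olaparib library lay above every DMSO library and in 1 gene below, against 20.7% and 20.3% of all genes tested. Nothing is read from these counts.

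Trp53 was measured at 75.6, 76.0, 77.6 and 83.5 CPM in the DMSO libraries, at 67.6, 64.3, 64.7 and 65.4 CPM in olaparib, and at 70.0, 62.6 and 64.7 CPM in MNA, with MNA replicate 2 at 75.9 CPM. All olaparib libraries were below all DMSO libraries, by a log2 fold change of -0.26 ± 0.07 (SE), so that Trp53 fell by 16.2% against DMSO. Trp53 shares 10.2% of the 31-base words of its transcripts with other genes, mostly with its pseudogene Trp53-ps (8.79%), so a small part of its reads may not be counted for it.

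Mdm2, the inhibitor of p53, was at 197, 216, 208 and 201 CPM in DMSO, at 258, 260.1, 251 and 262 CPM in olaparib, and at 179, 167 and 155 CPM in MNA, with MNA replicate 2 at 216 CPM. The olaparib libraries lay above all others, and the 3 MNA libraries lay below all DMSO libraries. The log2 fold change of olaparib against DMSO was 0.33 ± 0.09.

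Cdkn1a was at 399.8, 424, 378 and 391.5 CPM in DMSO, at 563, 556, 540.1 and 573 CPM in olaparib, and at 253, 238 and 235 CPM in MNA, with MNA replicate 2 at 394 CPM. The 3 groups did not overlap once MNA replicate 2 was set aside, in the order MNA, DMSO and olaparib, and MNA replicate 2 lay among the DMSO libraries. Its log2 fold change of olaparib against DMSO was 0.49 ± 0.14, and 0.49 ± 0.05 when MNA replicate 2 was left out of the fit. Cdkn1a shares 9.78% of its 31-base words with other genes, and AC167363.2 overlaps it on the opposite strand.

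Ccng1 encodes cyclin G1, which recruits a phosphatase that acts on Mdm2. Its level was 161, 168, 167 and 156 CPM in DMSO, 291, 273, 277 and 301 CPM in olaparib, and 217, 173 and 169 CPM in MNA, with MNA replicate 2 at 162 CPM. Olaparib was above both other groups throughout, by 0.81 ± 0.09 on the log2 scale against DMSO, and MNA replicate 1 was the only MNA library more than a few CPM above the DMSO range.

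Phlda3, a repressor of Akt signalling that competes for membrane lipids, was at 29.2, 31.7, 22.4 and 22.8 CPM in DMSO, at 76.2, 80.9, 83.2 and 89.9 CPM in olaparib, and at 25.8, 22.0 and 24.8 CPM in MNA, with MNA replicate 2 at 28.2 CPM. DMSO and MNA overlapped, and the lowest olaparib library was at more than 2 times the highest of either. With a log2 fold change of 1.64 ± 0.12, Phlda3 stood at rank 390 of 12849 genes in olaparib against DMSO.

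Zmat3 encodes a zinc finger protein that binds RNA and regulates splicing. It was at 29.1, 35.3, 29.6 and 31.5 CPM in DMSO, at 66.4, 66.6, 64.7 and 75.2 CPM in olaparib, and at 33.2, 25.7 and 29.7 CPM in MNA, with MNA replicate 2 at 29.5 CPM. Olaparib was apart from both other groups by 1.12 ± 0.09 on the log2 scale against DMSO, and MNA lay around the DMSO range.

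Trp53inp1, a stress protein that works with p53 and in autophagy, was at 39.4, 41.8, 53 and 39.3 CPM in DMSO, at 92.7, 88.3, 94.7 and 105 CPM in olaparib, and at 60.4, 50.8 and 43.7 CPM in MNA, with MNA replicate 2 at 47.3 CPM. The olaparib libraries were again above all others, with a log2 fold change of 1.13 ± 0.12 against DMSO, while MNA and DMSO overlapped.

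Bbc3, which encodes the pro-apoptotic BH3-only protein PUMA, was at 33.8, 46.6, 44.7 and 38.3 CPM in DMSO, at 32.8, 35.6, 36.1 and 30.7 CPM in olaparib, and at 17.4, 21.7 and 17.6 CPM in MNA, with MNA replicate 2 at 38.1 CPM. Olaparib and DMSO overlapped (log2 fold change -0.27 ± 0.21), and 3 of 4 MNA libraries were below all other libraries.

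Aen, an exonuclease linked to apoptosis, was at 45.4, 53.7, 50.9 and 53.5 CPM in DMSO, at 50.1, 51.2, 51.2 and 46.6 CPM in olaparib, and at 33.4, 34.9 and 36.1 CPM in MNA, with MNA replicate 2 at 52.0 CPM. Its olaparib and DMSO libraries covered the same range (log2 fold change -0.03 ± 0.12), and the same 3 MNA libraries were the lowest.

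**Figure D2:**
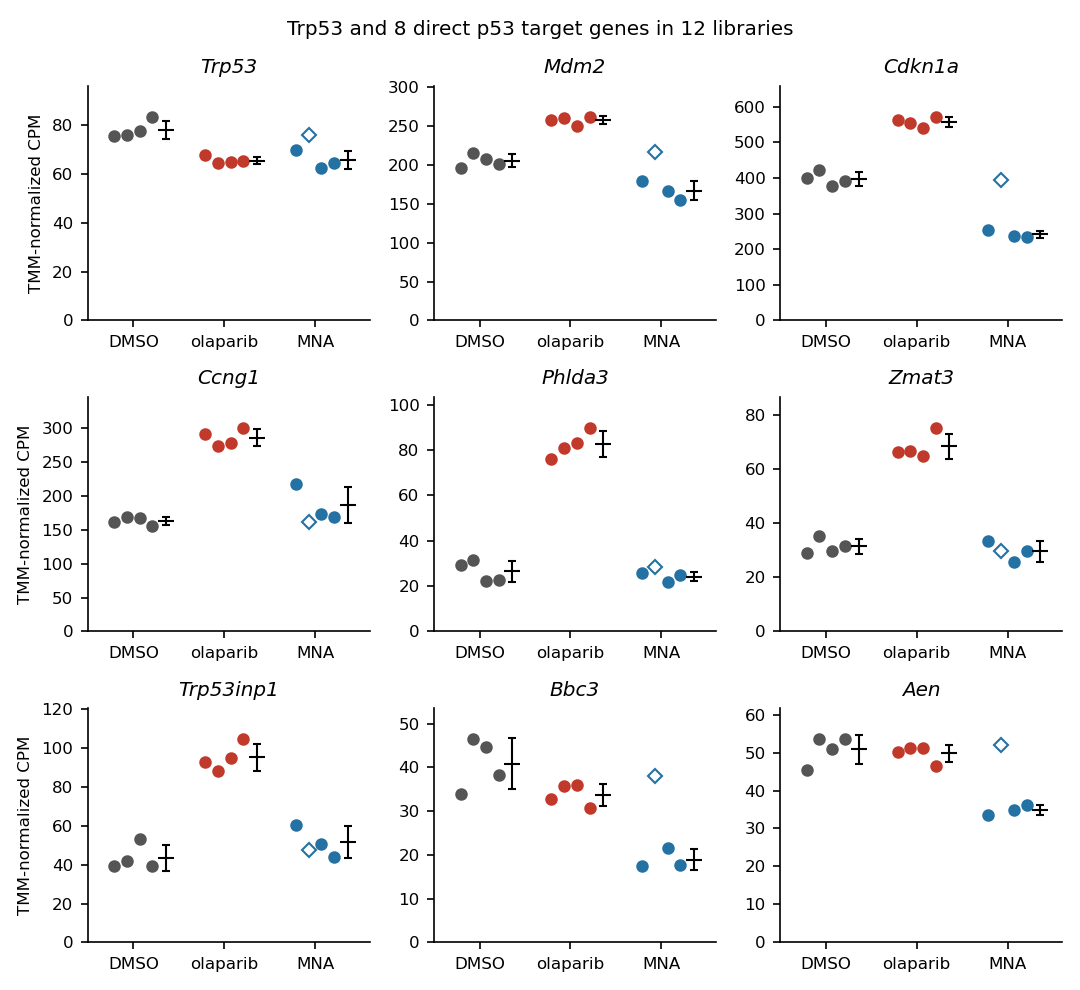
TMM-normalized CPM of each of the 9 genes by group, with a point per library in the order of replicates 1 to 4; the open diamond is MNA replicate 2, and the bar beside each group is the mean ± SD of the filled points. The olaparib points lie above all others for Mdm2, Cdkn1a, Ccng1, Phlda3, Zmat3 and Trp53inp1, and 3 MNA points lie lowest for Mdm2, Cdkn1a, Bbc3 and Aen, where the diamond lies near the DMSO points.

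MNA against DMSO gave another pattern in the same genes. Cdkn1a, Bbc3, Aen and Trp53 fell, Mdm2 was lower without passing the test, and Ccng1, Phlda3, Zmat3 and Trp53inp1, which were high with olaparib, did not pass it in either direction. This comparison shares the DMSO libraries with olaparib against DMSO. Their values were known when the genes were chosen, so p values and counts given for MNA are a description and not independent evidence. Of the 9 genes, 0 were called higher and 4 lower, where 16.3% of all genes tested were called higher and 12.3% lower. With all 4 MNA libraries, 0 genes had MNA values wholly above or wholly below the DMSO values, against 6.24% and 6.12% of all genes. The median log2 fold change of the 9 genes was -0.20, and that of all genes tested 0.00.

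Cdkn1a had a log2 fold change of -0.51 ± 0.14 (adjusted p = 0.0247, edgeR quasi-likelihood test), so that it fell by 29.6%. Bbc3 had -0.79 ± 0.22 (edgeR adjusted p = 0.0244), the lowest of the 9 genes. Aen followed at -0.38 ± 0.12 (edgeR adjusted p = 0.0389) and Trp53 at -0.20 ± 0.07 (edgeR adjusted p = 0.0425). With the replicate number as a block, Trp53 was not called (edgeR adjusted p = 0.0545). Mdm2 was at -0.20 ± 0.09, with an edgeR adjusted p of 0.103. These calls rest on narrow margins: when single libraries were dropped, for each of the 12, edgeR adjusted p ranged from 2.19e-07 to 0.0785 for Cdkn1a, from 2.64e-06 to 0.0759 for Bbc3, from 1.29e-05 to 0.109 for Aen and from 0.00148 to 0.128 for Trp53, in each case lowest without MNA replicate 2. In the fit of DMSO and MNA alone, edgeR called 0 of the 9 genes (0 of all 12379 genes tested, 4728 at an unadjusted p under 0.05).

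Without MNA replicate 2, 5 of the 9 genes were called lower and 0 higher, where 26.9% of genes were called lower and 27.2% higher. Bbc3 then fell by 53.8% (log2 fold change -1.12 ± 0.12, edgeR adjusted p = 2.64e-06), Cdkn1a at -0.72 ± 0.06 (edgeR adjusted p = 2.19e-07), Aen at -0.55 ± 0.07 (edgeR adjusted p = 1.29e-05), Mdm2 at -0.30 ± 0.06 (edgeR adjusted p = 0.00081) and Trp53 at -0.25 ± 0.05 (edgeR adjusted p = 0.00148). These 5 genes were lower in all 3 MNA libraries than in every DMSO library, and Ccng1 was higher in all 3, by 0.19 ± 0.08, with an edgeR adjusted p of 0.0624; of all genes tested, 27.2% lay wholly below and 27.2% wholly above. Phlda3 (-0.13 ± 0.12), Zmat3 (-0.09 ± 0.09) and Trp53inp1 (0.25 ± 0.12) were not called. MNA replicate 2 was inside the DMSO range for 8 of the 9 genes, against 67.4% of all genes, with Mdm2 just above it, and it was inside the range of the other MNA libraries for 2 of the 9, Zmat3 and Trp53inp1, against 22.7% of all genes.

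**Figure D3:**
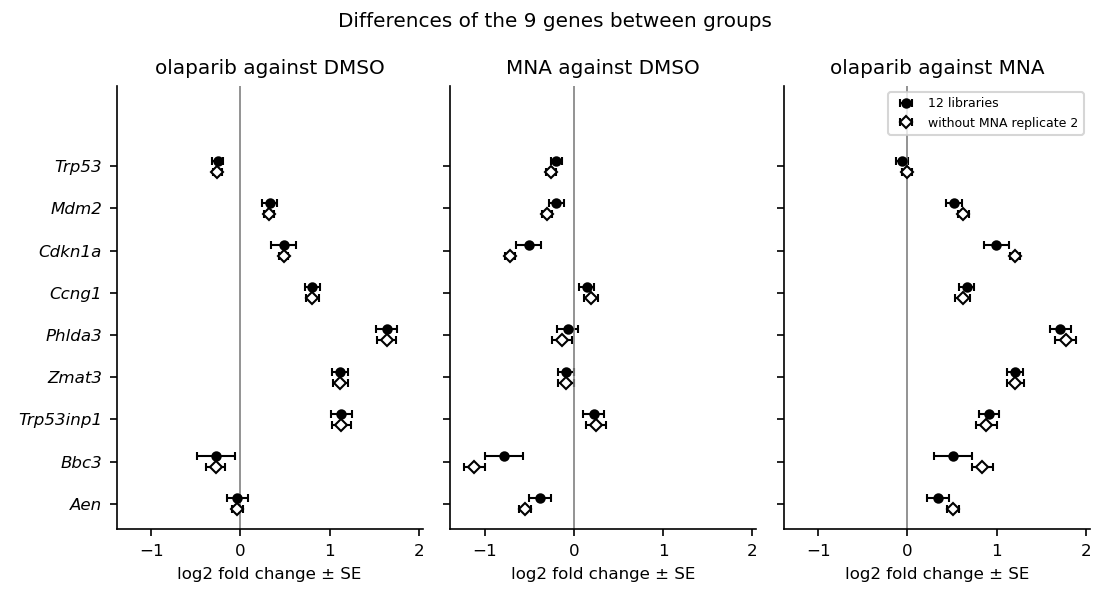
Log2 fold changes (horizontal axis) of the 9 genes in the 3 comparisons, with SE as bars; filled circles come from the fit of all 12 libraries and open diamonds from the fit without MNA replicate 2. Values for olaparib against DMSO run from -0.27 (Bbc3) to 1.64 (Phlda3), and those for MNA against DMSO from -0.79 (Bbc3) to 0.22 (Trp53inp1) with all libraries.

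Set directly beside each other, olaparib exceeded MNA in Phlda3, Zmat3, Cdkn1a, Trp53inp1, Ccng1 and Mdm2. This comparison uses the olaparib libraries that chose the genes, so it too is given without p values, and nothing is read from its counts of called genes. The log2 fold changes were 1.71 ± 0.12 for Phlda3, 1.21 ± 0.09 for Zmat3, 0.99 ± 0.14 for Cdkn1a, 0.91 ± 0.12 for Trp53inp1, 0.66 ± 0.09 for Ccng1 and 0.52 ± 0.09 for Mdm2. Bbc3 (0.51 ± 0.22) and Aen (0.35 ± 0.12) overlapped between the groups through MNA replicate 2, and Trp53 was nearly equal (-0.06 ± 0.07). Of the 9 genes, 6 were called higher and 0 lower, where 10.9% of genes were called in each direction, and the same 6 did not overlap between groups, against 11.5% of genes. Without MNA replicate 2, 8 genes were called higher and 0 lower, where 21.5% and 20.7% of genes were, and all olaparib libraries lay above the 3 MNA libraries in those 8, against 23.5% of genes. Trp53 mRNA was at 65.5 ± 1.48 CPM in olaparib and 65.7 ± 3.80 CPM in these 3 MNA libraries (n = 4 and 3). All 8 targets were lower in these 3 MNA libraries than in olaparib. Whether Trp53 mRNA bears on the levels of the targets was not tested.

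Across the 12 libraries, Pearson r of log2 CPM between Trp53 mRNA and a target ran from -0.63 (Trp53inp1) to 0.55 (Bbc3). Around the group means, over 11 libraries without MNA replicate 2, the same values were 0.23 for Trp53inp1 and -0.39 for Bbc3, with Ccng1 highest at 0.49. Among the targets, r was highest between Phlda3 and Zmat3 (0.98), Ccng1 and Trp53inp1 (0.98), Cdkn1a and Mdm2 (0.97) and Bbc3 and Aen (0.95), and lowest between Ccng1 and Bbc3 (-0.04). These are descriptions over 12 libraries in 3 groups, in which the group differences set most of the value. Most like Cdkn1a over the 12 libraries, among 9737 other genes whose mean count was 100 or more, were Ak1 (r = 0.99), Emilin1 (0.99) and Zranb3 (0.99). Ak1, an adenylate kinase that is also a p53 target, is on the list of other targets described next. Most like Trp53 were Akirin2 (0.97), Proser1 (0.97) and Lamc1 (0.97).

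The wider p53 program was followed in 40 other known target genes, of which 39 were tested, and Gls2 was too low (at most 8 counts in a library). This list and those below were written with earlier results of these data known, so their counts and p values are a description and not independent evidence. With olaparib, 17 of the 39 rose and 1 fell, beside 14.3% and 12.8% of all genes, and the median log2 fold change was 0.27, against 0.00 for all genes. In 19 of the 39 every olaparib library lay above every DMSO library and in 3 below, against 20.7% and 20.3% of all genes. The log2 fold changes ran from -0.79 to 1.83, and the gene that fell belongs to metabolism and redox. With the replicate number as a block, 18 rose and 2 fell, beside 1974 and 1722 of all 12849 genes. Without MNA replicate 2 in the fit 19 rose and 3 fell, where 22.5% and 21.2% of all genes did. Eda2r and Tnfrsf10b, which encode receptors of the TNF family, rose by 1.83 ± 0.22 and 1.61 ± 0.17 on the log2 scale (edgeR adjusted p = 0.000251 and 0.000103). Psrc1, a spindle protein, rose by 1.39 ± 0.17 (edgeR adjusted p = 0.000322). Dglucy, an enzyme of D-glutamate metabolism, rose by 1.46 ± 0.24, Pidd1, which nucleates a caspase-activating complex, by 0.96 ± 0.19, and Aldh4a1, a mitochondrial enzyme of proline breakdown, by 0.89 ± 0.14. Such genes were low: Eda2r lay at 1.31, 1.93, 1.47 and 2.10 CPM in DMSO and at 4.66, 5.58, 6.35 and 7.84 CPM in olaparib, without overlap. By role, the calls higher were 3 of 7 cell cycle genes, 5 of 10 apoptosis genes, 4 of 8 genes of metabolism and redox, 3 of 6 DNA repair genes, 0 of 3 feedback genes and 2 of 5 others.

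With MNA, 9 of the 39 rose and 4 fell, beside 16.3% and 12.3% of all genes, and the median was 0.06. Plk3 (0.78 ± 0.18), a polo-like kinase, Pcna (0.60 ± 0.14), the sliding clamp of replication, Pmaip1 (0.84 ± 0.21), which encodes the BH3-only protein NOXA, Aldh4a1 (0.63 ± 0.14) and Tnfrsf10b (0.66 ± 0.17) rose, and Gadd45a, a stress sensor, fell by 1.08 ± 0.25 on the log2 scale. The edgeR adjusted p values of these 6 were 0.0154 to 0.0202. Bbc3 and Pmaip1, both BH3-only genes of the p53 program, thus moved in opposite directions with MNA. The counts moved widely with MNA replicate 2: without it 15 rose and 10 fell, beside 27.2% and 26.9% of all genes.

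Between olaparib and MNA, 8 of the 39 were higher in olaparib and 1 lower, beside 10.9% of all genes in each direction. Without MNA replicate 2 they were 11 and 3, beside 21.5% and 20.7%. Perp, a membrane protein linked to apoptosis and adhesion, differed most, at 15.3, 10.7, 11.2 and 14.7 CPM in olaparib and 0.494, 0.309 and 0.362 CPM in MNA, with MNA replicate 2 at 3.15 CPM and DMSO at 3.44 to 7.36 CPM. Its log2 fold change of olaparib against MNA was 3.55 ± 0.60 (edgeR adjusted p = 0.00176). Ak1 differed in the same way, at 349 ± 27.1 CPM in olaparib, 106 ± 15 CPM in DMSO and 29.0 ± 6.3 CPM in the 3 MNA libraries, with 116 CPM in MNA replicate 2. Eda2r (2.38 ± 0.23) and Psrc1 (1.71 ± 0.17) were also higher in olaparib than in MNA, with edgeR adjusted p of 4.45e-05 and 7.04e-05, and Sfn, which encodes 14-3-3 sigma, was lower (-0.76 ± 0.15, edgeR adjusted p = 0.00454).

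**Figure D4:**
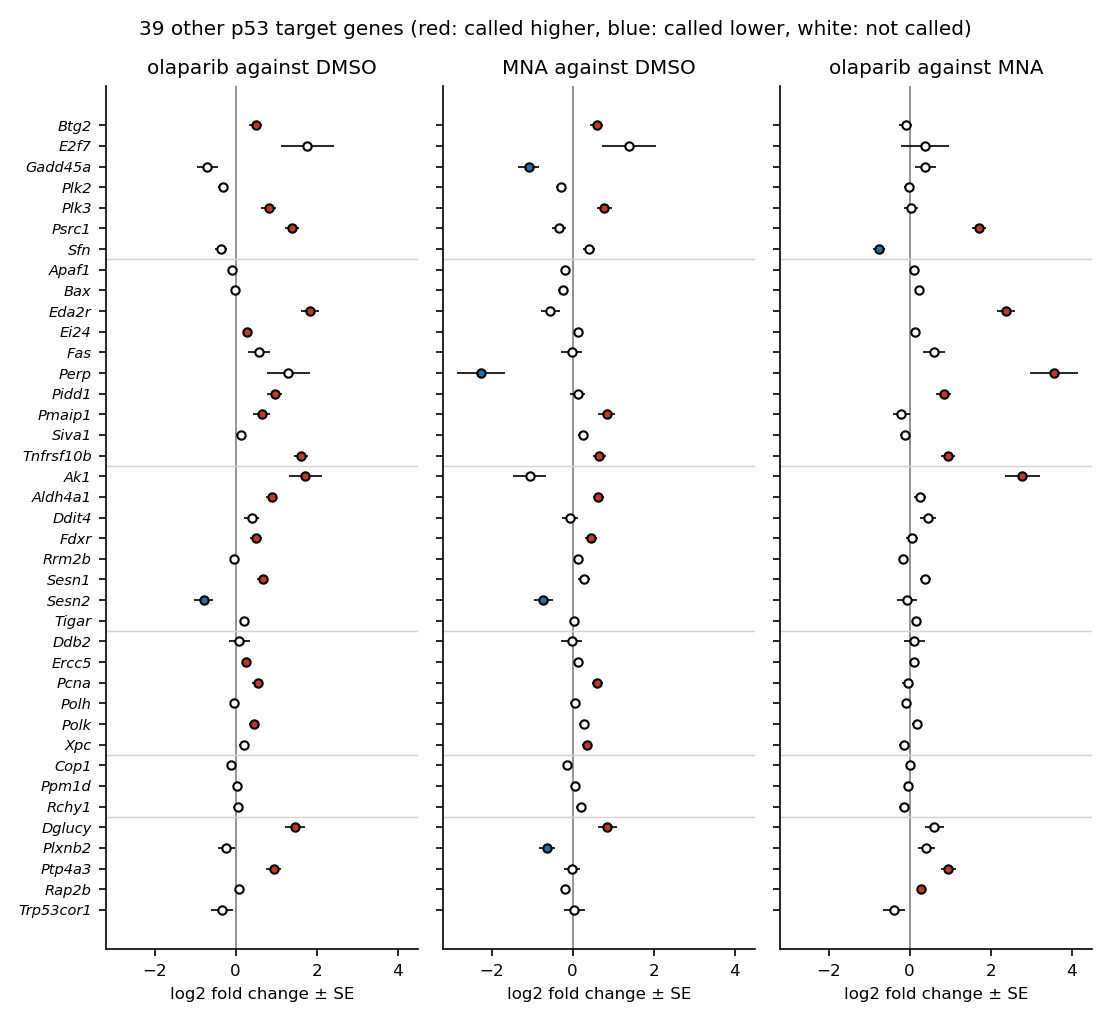
Log2 fold changes with SE (horizontal axis) of 39 other p53 target genes in the 3 comparisons, all 12 libraries, grouped from the top as cell cycle, apoptosis, metabolism and redox, DNA repair, feedback and others. Red points were called higher and blue points lower: 17 and 1 in olaparib against DMSO, 9 and 4 in MNA against DMSO, and 8 and 1 in olaparib against MNA.

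Of 15 regulators of p53, 2 rose and 4 fell with olaparib, 2 rose and 1 fell with MNA, and 1 was higher and 2 lower in olaparib than in MNA. Over all genes the shares were 14.3% and 12.8%, 16.3% and 12.3%, and 10.9% and 10.9%. The median log2 fold changes were -0.16, 0.04 and -0.07. Without MNA replicate 2 the counts were 4 and 4, 2 and 3, and 2 and 3, beside 22.5% and 21.2%, 27.2% and 26.9%, and 21.5% and 20.7% of all genes. Chek2, a checkpoint kinase that phosphorylates p53, rose with olaparib from 12.2 ± 0.781 to 21.5 ± 1.62 CPM, by 0.82 ± 0.09 on the log2 scale (edgeR adjusted p = 0.000125). Cdkn2a, whose ARF product inhibits Mdm2 and whose other product is the kinase inhibitor p16, was at 23.5, 31.7, 19.5 and 21.4 CPM in DMSO and at 9.96, 6.56, 4.88 and 6.58 CPM in olaparib, a log2 fold change of -1.77 ± 0.23 (edgeR adjusted p = 0.000406), and at 19.8, 26.4 and 30.2 CPM in MNA, with MNA replicate 2 at 33.5 CPM. Counts per gene do not tell the products of Cdkn2a apart. Ppp1r13b, the p53 partner ASPP1, rose (0.68 ± 0.12), and the kinase gene Atm (-0.45 ± 0.12), the acetyltransferase genes Kat5 (-0.27 ± 0.07) and Crebbp (-0.29 ± 0.08) fell with olaparib, at edgeR adjusted p of 0.00308 to 0.0242. Usp7, a deubiquitinase of Mdm2 and p53, rose with MNA by 0.19 ± 0.05 (edgeR adjusted p = 0.0202) and was at 0.01 ± 0.05 with olaparib.

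The p53 relatives Trp63 and Trp73 and the Phlda3 paralogue Phlda2 had no more than 3 counts in any library. Of the other 7 paralogues, 3 rose and 2 fell with olaparib, beside 14.3% and 12.8% of all genes, and 2 rose and 0 fell with MNA, beside 16.3% and 12.3%. Without MNA replicate 2, 4 rose and 1 fell with MNA, beside 27.2% and 26.9%. The other CIP/KIP inhibitors split: Cdkn1c (p57) rose with olaparib by 1.42 ± 0.33 (edgeR adjusted p = 0.00913) and Cdkn1b (p27) fell, with a log2 fold change of -0.39 ± 0.12 (edgeR adjusted p = 0.0282). Ccng2 rose with both agents, by 0.35 ± 0.10 with olaparib and 0.45 ± 0.10 with MNA (edgeR adjusted p = 0.0252 and 0.0161). The log2 fold change of olaparib against MNA was -0.10 ± 0.10 for Ccng2 and 0.66 ± 0.09 for Ccng1. Phlda1 rose with MNA by 1.40 ± 0.48 (edgeR adjusted p = 0.0456) and was lower in olaparib than in MNA.

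Cdkn1a is known for holding cells before division, and 20 genes of cell division and replication were therefore set beside it. Whether the level of Cdkn1a bears on these genes was not tested. With olaparib, 8 of the 20 rose and 0 fell, beside 14.3% and 12.8% of all genes, with a median log2 fold change of 1.0. The 8 were mitosis genes, and 0 of 7 replication genes were called by edgeR. Without MNA replicate 2 in the fit, which lowers the shared estimate of the spread, 12 of 13 mitosis genes and 4 of 7 replication genes rose, where 22.5% of all genes did. Ccnb2 (cyclin B2) rose by 2.58 ± 0.62, Plk1 by 1.80 ± 0.40, Cdk1 by 1.27 ± 0.31, Ccna2 by 1.80 ± 0.52 and Ccnb1 by 1.34 ± 0.40 (edgeR adjusted p = 0.00806 to 0.0273). Levels were low and spread widely, with Ccnb2 at 1.88, 0.585, 0.469 and 0.921 CPM in DMSO and at 5.65, 2.91, 4.33 and 9.48 CPM in olaparib. With MNA, where Cdkn1a fell, 5 of the 20 rose and 0 fell, beside 16.3% and 12.3% of all genes, led by E2f1 (0.69 ± 0.19, edgeR adjusted p = 0.0231), a transcription factor of S phase, and without MNA replicate 2 the counts were 12 and 2, beside 27.2% and 26.9%. Between olaparib and MNA, 0 of the 20 were called by edgeR, beside 10.9% of all genes in each direction, with a median of 0.24, and the smallest adjusted p was 0.0695 (Ccnb1). Leaving out MNA replicate 2, 0 were higher and 1 lower in olaparib, beside 21.5% and 20.7% of all genes, with a median of 0.07.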

How the data were processed

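RNA of 12 BMDM libraries was analysed from the deposited raw read counts per Ensembl gene. Per the labels and the study's methods, the authors prepared libraries with the Illumina Stranded mRNA kit, sequenced single-end reads of 150 bases, aligned them with STAR 2.5.2b to GRCm38.p5 and used DESeq2 in R 3.6.0. Which strand column of STAR was taken is not given in the sources used here. The deposited counts are not normalized.

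Genes kept by filterByExpr of edgeR 4.0.16 (minimum count 10, minimum total 15; 12849 genes) were tested in R 4.3.3 with the quasi-likelihood F test and TMM normalization, in 1 fit of 12 libraries without a replicate block, with calls at a p under 0.05 after Benjamini-Hochberg adjustment over all genes tested. SE is the log2 fold change divided by the square root of F. Principal components used log2 CPM with a prior count of 2. Exon lengths and shared 31-base words came from a GENCODE annotation of GRCm38, promoters from RefSeq. The p values measure the spread between these libraries, which may be cultures and not separate mice.

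The members and lists were chosen with earlier results of these data known, and the lists were written from general knowledge. Beside the 9 genes, up to 6 called genes with the smallest adjusted p of each list and comparison were named by rule, together with genes at the floor of 3 counts and the 3 genes most like Cdkn1a and Trp53. Deviations of same-numbered olaparib and DMSO libraries from their group means had r of 0.227, 0.172, 0.225 and 0.408 across genes. Libraries of different numbers were not compared in this way, so these values do not settle whether the numbers pair libraries. Alternatives were DESeq2 1.42.0, RLE and upper quartile normalization, no filter, the replicate block, a mean count of 50 or more, fits of 2 groups, a threshold of 0.01 and each library left out. On simulated counts with 200 changed genes the scripts were tested before use. Python 3.11.15 drew the tables and figures. The doses of the agents are not given in the sources used here.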

Additional observations from a re-analysis of the deposited data

Results flagged for a closer look

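In the MNA group, a single library was far from the other 3 for 2 of the 9 genes, among 27 groups of 4 libraries examined. For Cdkn1a the gap between MNA replicate 2 (394 CPM) and the next library (253 CPM) was 0.884 of the whole range of the group, above Dixon's critical value for 4 libraries. For Aen the gap between MNA replicate 2 (52.0 CPM) and the next library (36.1 CPM) was 0.855 of the range. Chance flags about 1 group in 20 where groups are independent, but these groups share 12 libraries. Both flags fell on MNA replicate 2, which lay among the DMSO libraries on the first principal component. Both values lay within the range of the DMSO libraries.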

How the results depend on the processing

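Counts of the 9 genes in olaparib against DMSO only describe the values that chose them. Those called higher were 6 with DESeq2, both other normalizations, both other filters, the replicate block and the 2 groups alone, and 4 to 6 with a library left out. In those fits, 1650 (no filter, 21847 tested) to 2886 (2 groups alone, 12596 tested) of all genes were called higher, and 1231 to 2935 with a library left out. At a threshold of 0.01 the higher calls were 4, without Mdm2 and Cdkn1a, beside 852 of all 12849 genes. Lower calls of the 9 genes against DMSO with olaparib (1) were 2 in the fit of 2 groups and with the replicate block without MNA replicate 2, 0 at a threshold of 0.01, and 1 to 2 with a library left out. Over all genes, lower calls in these fits were 2834 of 12596, 2962 of 13023, 530 of 12849 and 921 to 2759. For the other p53 targets against DMSO, 10 rose with olaparib at 0.01, beside 852 of all 12849 genes. Those lower with olaparib (1) were 3 with DESeq2, 2 with the replicate block, 4 in the 2 groups alone and with the block without MNA replicate 2, 0 at 0.01, and 0 to 3 with a library left out. All genes called lower were 1954 of 12849 with DESeq2 and 1722 of 12849 with the block, with the other fits given above. The MNA calls were the least stable: in the fit of DMSO and MNA alone edgeR called 0 of the 9 genes and 0 of the other targets (0 of all 12379 genes, 4728 at an unadjusted p under 0.05), and 0 at a threshold of 0.01 (5756 of 12849 genes at an unadjusted p under 0.05; DESeq2 called 4449 at 0.05). With a library left out, 0 to 5 of the 9 genes were lower with MNA, 0 to 15 other targets higher and 0 to 10 lower. Over all genes, 408 to 3543 were called higher and 55 to 3499 lower in those fits. Of the 9 genes, 0 were lower after leaving out MNA replicate 1, 3 or 4, or DMSO replicate 2 or 3, 1 without DMSO replicate 4, and 2 without olaparib replicate 1, 2 or 3. Other targets higher with MNA were 5 and 3 without DMSO replicates 2 and 3, 2, 15, 0 and 0 without MNA replicates 1, 2, 3 and 4, and those lower were 2 without DMSO replicate 2 or 3 or olaparib replicate 2, 1 without DMSO replicate 4 or MNA replicate 1, 10 without MNA replicate 2 and 0 without MNA replicate 3 or 4. The replicate block without MNA replicate 2 gave 16 other targets higher and 10 lower with MNA, beside 3618 and 3547 of all 13023 genes. In olaparib against MNA it gave 15 other targets higher and 4 lower, beside 2952 and 2790 of all 13023 genes. There, 1 to 3 other targets were lower with a library left out.

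The Cdkn1a call in olaparib against DMSO was lost without DMSO replicate 3 or 4 or olaparib replicate 1, 2 or 4, and that of Mdm2 without DMSO replicate 4. With the replicate block, Trp53 was no longer called in MNA against DMSO (log2 fold change -0.20, edgeR adjusted p = 0.0545), and Bbc3 and Aen were called higher in olaparib against MNA. It changed no other call of the 9 genes. Same-numbered MNA and DMSO libraries had r of -0.01 to 0.28, which overlaps the values of olaparib and DMSO. These values do not settle pairing either. No direction of a called gene among the 9 turned in any alternative, and the cause of these shifts was not tested. Depth limits low genes of the lists such as Gls2, Trp63, Trp73 and Phlda2; the 9 genes had 423 counts or more in each library.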
